A study of Mus musculus with 16 samples.

Results

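The miR-7 and miR-671 miRNAs, which bind the circular RNA Cdr1as in brain, were followed in the lateral ventricle (LV) wall of WT and Dgcr8+/- mice. Their members were chosen by name and were mmu-miR-7a-5p, mmu-miR-7b-5p, mmu-miR-671-5p and mmu-miR-671-3p (the prefix, for mouse, is left out below), that is, 4 of the 1881 mature mouse miRNAs on the array. The 8 WT mice were littermates of the 8 Dgcr8+/- mice. All were 8-month-old males, and the methods describe the Dgcr8+/- strain as back-crossed onto C57BL/6J. Dgcr8+/- mice carry a single working copy of Dgcr8 in every cell from conception, so the comparison is not limited to a cell type or a period of life. The RNA of each mouse was labelled with Cy3 and hybridised to its own 1-colour Agilent array. A slice of the LV wall holds ependymal cells, neurons, glia and vessels, and in such bulk tissue fewer cells of a type cannot be told apart from less RNA per cell. Dgcr8 mRNA and Cdr1as are not on a miRNA array, so neither the targeted gene nor the circular RNA was measured here.

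Dgcr8 is the RNA-binding partner of the nuclease Drosha in the Microprocessor, which cuts miRNA hairpins out of their primary transcripts. miR-7 is an ancient miRNA of neurons and neurosecretory cells. In brain it binds the circular RNA Cdr1as, which carries many miR-7 sites and a site of nearly complete pairing to miR-671, through which miR-671 directs the cutting of the circle. The long noncoding RNA Cyrano, in turn, directs the decay of miR-7.

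The mature sequences are shown because the comparison turns on miRNAs that differ by few bases. In each, the capitals mark the seed, bases 2 to 8 from the 5′ end, with which a miRNA chiefly recognises its targets. All 4 members matched a RefSeq entry (GRCm38.p6).
miR-7a-5p: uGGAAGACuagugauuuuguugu
miR-7b-5p: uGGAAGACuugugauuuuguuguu
miR-671-5p: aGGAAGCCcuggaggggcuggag
miR-671-3p: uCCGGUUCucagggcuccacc
miR-7a-5p and miR-7b-5p share their seed, and 22 of the 23 positions they have in common are identical. They differ by A10U, counted from the 5′ end with the base of miR-7a-5p first, and miR-7b-5p is longer, with 24 bases. The seed of miR-671-5p is not that of miR-7. Over the first 8 positions it differs from miR-7a-5p by U1A and A7C. Among the 1608 array miRNAs with a mature sequence in the RefSeq table, no miRNA outside the members carried any of these seeds.

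miR-7a-5p has 2 genes. Mir7-1 encodes it at chr13:58392841-58392863 on the minus strand, within the bounds of the protein-coding gene Hnrnpk. Mir7-2 encodes the same 23 bases at chr7:78888295-78888317 on the plus strand, between Det1 and Gm39039, so the level of miR-7a-5p is the sum of both genes. miR-7b-5p comes from Mir7b at chr17:56243017-56243040 on the plus strand, between A230051N06Rik and Fem1a. Both arms of miR-671 come from a single hairpin on the plus strand of chromosome 5, within the bounds of the protein-coding gene Chpf2, with the 5p arm at chr5:24592132-24592154 and the 3p arm at chr5:24592171-24592191.

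Levels are log2 signals after quantile normalization, which gives every array the same distribution of probe signals, so a difference is relative to the other miRNAs. Testing was limited to the 495 miRNAs that the scanner software marked as detected on 8 or more arrays of the 16. Of the 4 members, 3 were among them. WT arrays had 495 to 540 detected miRNAs and summed signals of 21545358 to 29763412, and Dgcr8+/- arrays had 467 to 492 and 18528866 to 23440575. Slide 1 held 6 WT and 2 Dgcr8+/- arrays and slide 2 held 2 WT and 6 Dgcr8+/- arrays, so values within each slide are given beside the pooled ones. The Dgcr8+/- array of replicate 2 stood apart, with the lowest hybridisation spike-in signal of all 16 arrays (13.1 on the log2 scale), and results are also given without it. Of the 495 tested miRNAs, limma with Benjamini-Hochberg adjustment called 27.9% lower and 28.3% higher in Dgcr8+/- mice, or 56.2% in either direction. Of the 3 tested members, miR-7a-5p was called lower, miR-671-5p was called higher, and miR-7b-5p was not called. With 56.2% of the tested miRNAs called, such a count is near the background.

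miR-7a-5p was lower in Dgcr8+/- mice, at a fold of 0.811. In WT mice its log2 signal ran from 9.38 to 9.82 (median 9.78). In Dgcr8+/- mice it ran from 9.09 to 9.71 (median 9.39). The groups overlapped through 2 low WT arrays, replicates 1 and 3, whereas the other 6 WT arrays lay above every Dgcr8+/- array, and all 8 Dgcr8+/- arrays lay below the WT median. The means were 9.70 ± 0.18 in WT and 9.40 ± 0.19 in Dgcr8+/- mice (SD, n = 8 each). The log2 fold change was −0.30 (SE 0.09, 95% interval −0.49 to −0.12, limma adjusted p = 0.00753). In size it was larger than the SD within either genotype, but smaller than the range of either. Both probes for miR-7a-5p pointed the same way, at −0.27 and −0.32. The difference was −0.40 within slide 1 and −0.35 within slide 2, and −0.26 without Dgcr8+/- replicate 2 (limma adjusted p = 0.0121).

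**Figure D1:**
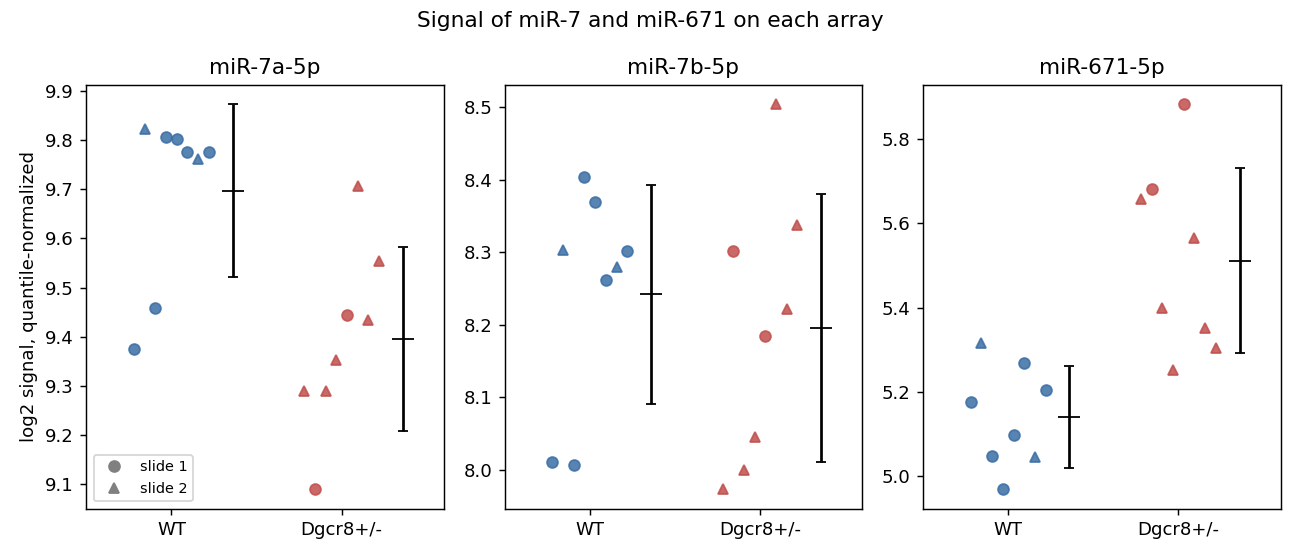
Quantile-normalized log2 signal of miR-7a-5p, miR-7b-5p and miR-671-5p on each of the 16 arrays, with WT in blue, Dgcr8+/- in red, circles for slide 1, triangles for slide 2, and bars for the mean ± SD (n = 8 per genotype). The y axes differ between panels and start above 0: 6 WT arrays sit above every Dgcr8+/- array for miR-7a-5p, the genotypes lie over each other for miR-7b-5p, and 6 Dgcr8+/- arrays sit above every WT array for miR-671-5p.

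miR-7b-5p, the family member with the same seed, did not pass the test after quantile normalization. Its log2 signal ran from 8.01 to 8.40 in WT mice (median 8.29) and from 7.97 to 8.50 in Dgcr8+/- mice (median 8.20). The groups lay over each other, and 5 of 8 Dgcr8+/- arrays were below the WT median. The means were 8.24 ± 0.15 and 8.20 ± 0.18 (SD, n = 8 each). The log2 fold change was −0.05 (SE 0.08, 95% interval −0.22 to 0.13, limma adjusted p = 0.652), so the interval reached from a small decrease to a small increase. The difference was 0.02 within slide 1, −0.11 within slide 2 and −0.06 without Dgcr8+/- replicate 2 (limma adjusted p = 0.534).

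The genotype difference was unequal for the miR-7 members. On each array the log2 signal of miR-7b-5p was subtracted from that of miR-7a-5p. An offset between their probes that is the same on every array cancels between the genotypes. Whether it stays the same on arrays of lower signal was not tested. Cross-hybridisation between these near-identical miRNAs was not measured. In WT mice this difference ran from 1.37 to 1.52 (median 1.46), and in Dgcr8+/- mice from 0.79 to 1.32 (median 1.24). All 8 Dgcr8+/- arrays lay below all 8 WT arrays. How many other pairs of the 495 tested miRNAs separate this fully was not computed. With 56.2% of single miRNAs called, the separation is not shown to be particular to miR-7. The genotype means, 1.46 ± 0.05 in WT and 1.20 ± 0.17 in Dgcr8+/- mice, differed by −0.26 (SE 0.06, two-sided exact permutation test over the 12870 groupings, p = 0.000155, the smallest this design can give, adjusted p = 0.000311 over 2 pairs). Without any normalization between arrays the difference was −0.20 (exact p = 0.000155). It was −0.42 within slide 1, −0.24 within slide 2 and −0.20 without Dgcr8+/- replicate 2, the array at 0.79.

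**Figure D2:**
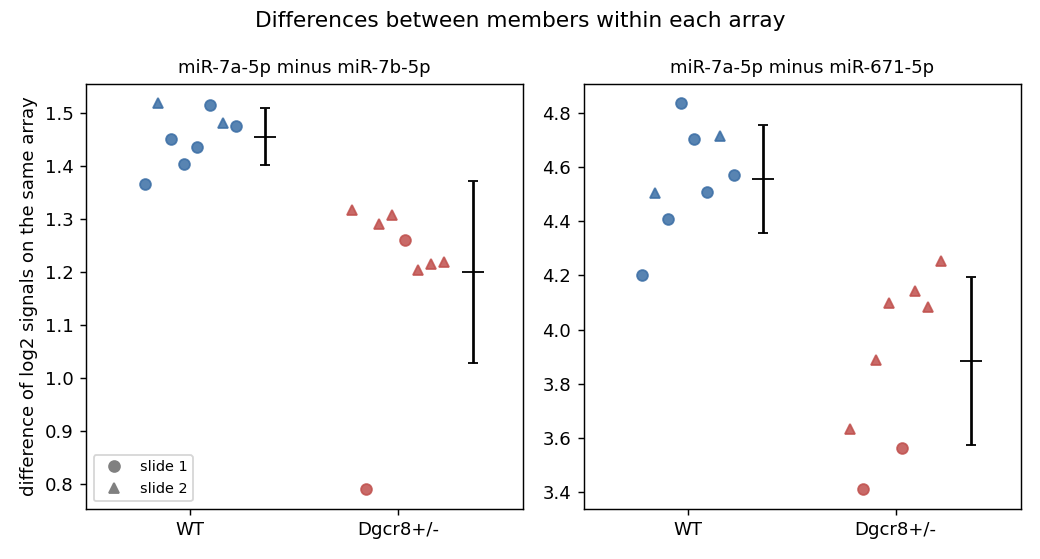
Difference of log2 signals on the same array, miR-7a-5p minus miR-7b-5p on the left and miR-7a-5p minus miR-671-5p on the right, with WT in blue, Dgcr8+/- in red, circles for slide 1, triangles for slide 2, and bars for the mean ± SD (n = 8 per genotype). On the left the 8 Dgcr8+/- arrays lie at 0.79 to 1.32, all below the WT arrays at 1.37 to 1.52, and on the right 7 of 8 Dgcr8+/- arrays lie below all WT arrays.

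Each miR-7 hairpin also gives a 3p arm, and unlike the shared miR-7a-5p the 3p arms of Mir7-1 and Mir7-2 differ in sequence. They are shown because they tell the genes apart, with the seed again in capitals.
miR-7a-1-3p: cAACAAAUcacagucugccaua
miR-7a-2-3p: cAACAAGUcccagucugccaca
miR-7b-3p: cAACAAGUcacagccagccuca
miR-7a-1-3p, from Mir7-1 in Hnrnpk, was the one 3p arm called lower. Its log2 signal ran from 6.90 to 7.03 in WT mice (median 6.98) and from 6.41 to 6.96 in Dgcr8+/- mice (median 6.83). Here 7 of 8 Dgcr8+/- arrays lay below every WT array. The log2 fold change was −0.17 (SE 0.06, limma adjusted p = 0.0259), and it was −0.37 within slide 1, which holds the low replicate 2, and −0.09 within slide 2. Without Dgcr8+/- replicate 2 it was −0.12 (limma adjusted p = 0.00389). With normexp background correction, which added an offset of 50 units before logs, it was −0.11 (limma adjusted p = 0.0174). The call was lost when no spot was left out for an outlier mark (−0.15, limma adjusted p = 0.121) and when the p-values were adjusted over all miRNAs with no filter (limma adjusted p = 0.0711).

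miR-7a-2-3p and miR-7b-3p did not pass the test. miR-7a-2-3p had a mean of 5.19 ± 0.15 in WT and 5.04 ± 0.36 in Dgcr8+/- mice (SD, n = 8 each), with a log2 fold change of −0.15 (SE 0.13, limma adjusted p = 0.311). This value was carried largely by Dgcr8+/- replicate 2, at 4.24. It was −0.04 without that array (limma adjusted p = 0.665), −0.46 within slide 1, which holds it, and −0.04 within slide 2. miR-7b-3p had a mean of 3.94 ± 0.13 in WT and 3.90 ± 0.30 in Dgcr8+/- mice (SD, n = 8 each), with a log2 fold change of −0.05 (SE 0.11, limma adjusted p = 0.736). It was −0.29 within slide 1, 0.02 within slide 2 and 0.04 without Dgcr8+/- replicate 2 (limma adjusted p = 0.601). It was a dim miRNA, detected on 8 WT and 7 Dgcr8+/- arrays, and its 2 probes were well above background on only 1 and 6 of the 16 arrays. Thus, beside 27.9% lower and 28.3% higher over all tested miRNAs, 1 of the 3 other miR-7 arms was called lower and none higher. Their median log2 fold change, which is the value of miR-7a-2-3p, was −0.15 with all arrays and −0.04 without Dgcr8+/- replicate 2, beside 0.04 over all 495 tested miRNAs. Whether the 3p arms differed from each other in their genotype difference was not tested.

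miR-671-5p, the arm that pairs with Cdr1as, was higher in Dgcr8+/- mice relative to the other miRNAs, but not in its signal before normalization. Its normalized log2 signal ran from 4.97 to 5.32 in WT mice (median 5.14) and from 5.25 to 5.88 in Dgcr8+/- mice (median 5.48). All 8 Dgcr8+/- arrays were above the WT median and 6 of 8 were above every WT array, with replicate 5 the highest. The means were 5.14 ± 0.12 and 5.51 ± 0.22 (SD, n = 8 each). The log2 fold change was 0.37 (SE 0.09, 95% interval 0.19 to 0.55, limma adjusted p = 0.00155), a fold of 1.29. Its 4 probes gave differences between 0.27 and 0.53, and each was well above background on all 16 arrays. The difference was 0.65 within slide 1, 0.24 within slide 2, 0.35 without Dgcr8+/- replicate 2 (limma adjusted p = 0.0029) and 0.32 without Dgcr8+/- replicate 5 (limma adjusted p = 0.00214). With normexp on the median signal, which added an offset of 50 units before logs, the log2 fold change was 0.14 (SE 0.03, limma adjusted p = 0.00237). Such an offset shrinks log ratios and their SE, most at low signal. This value therefore cannot tell the background correction apart from the offset.

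miR-671-3p, the other arm of the same hairpin, was detected on 0 of 16 arrays. It had 4 probes and 30 spots per array, and none of these probes was well above background on any array. No fold change is given, and the arms of miR-671 could therefore not be compared.

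Without normalization between arrays the same members read differently. The log2 fold change of miR-7a-5p was then −0.80 (SE 0.17, limma adjusted p = 0.000344), a fold of 0.574, and all 8 Dgcr8+/- arrays lay below all WT arrays, as they did for 27.5% of the tested miRNAs. The total gene signal of miR-7a-5p, as the scanner software gave it, was 415 to 705 in WT mice and 183 to 407 in Dgcr8+/- mice. For miR-7b-5p the log2 fold change was −0.60 (SE 0.15, limma adjusted p = 0.00144), with total gene signals of 160.5 to 266 in WT and 101 to 168 in Dgcr8+/- mice, and 6 of 8 Dgcr8+/- arrays below all WT arrays. All 3 of the other miR-7 arms were called lower on this scale, as were 59.2% of the tested miRNAs. The arms stood at −0.65 for miR-7a-1-3p, −0.52 for miR-7a-2-3p and −0.42 for miR-7b-3p. For miR-671-5p the log2 fold change was −0.01 (SE 0.11, limma adjusted p = 0.972), with total gene signals of 19.2 to 25.2 in WT and 19.6 to 32.2 in Dgcr8+/- mice.

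The whole distribution had moved on that scale. The median log2 fold change over the 495 miRNAs was −0.39 without normalization, beside 0.04 after it, and 59.2% were called lower and 0% higher by limma (0 miRNAs also at an unadjusted p under 0.05, and 2 by the methods' test, unadjusted). Relative to that median, miR-7a-5p was at −0.41, miR-7b-5p at −0.21 and miR-671-5p at 0.39. Scaling by the labelling spike-ins gave nearly the values without normalization, with miR-7b-5p at −0.59 (limma adjusted p = 0.00173), miR-671-5p at 0.01 (limma adjusted p = 0.956) and a median of −0.38. So the calls of miR-671-5p and miR-7b-5p rested on the scale, whereas miR-7a-5p was called lower on each.

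**Figure D3:**
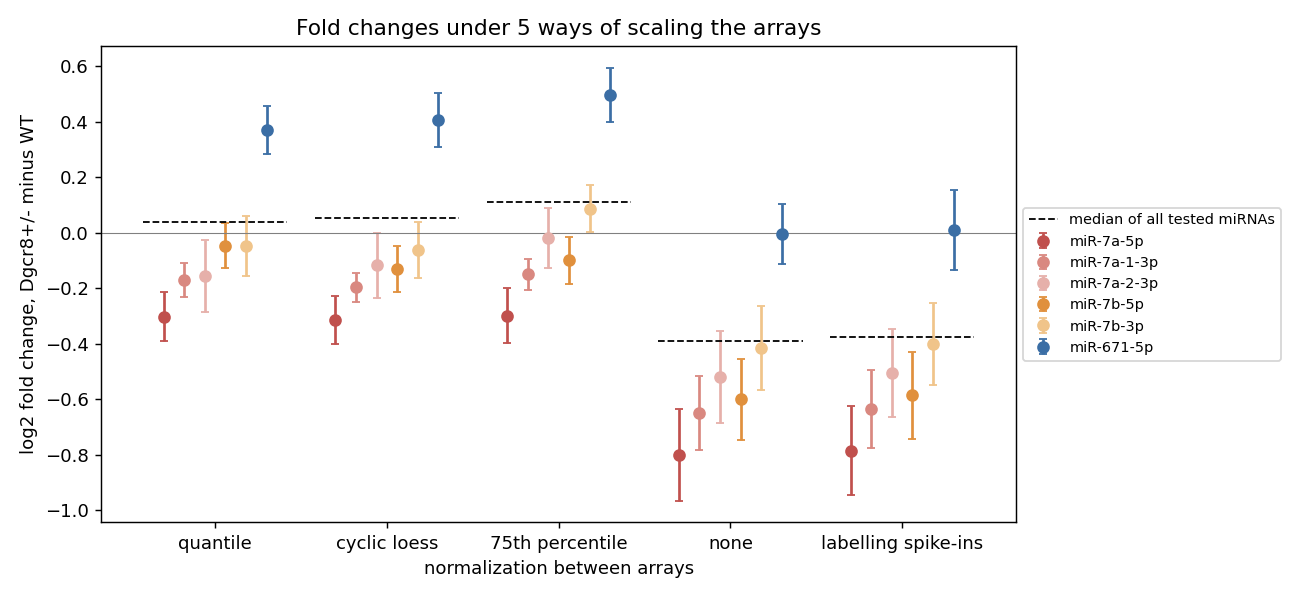
Log2 fold change (Dgcr8+/- minus WT, y axis) of miR-7a-5p, miR-7b-5p, miR-671-5p and the other miR-7 arms under 5 normalizations between arrays (x axis), with error bars for the SE and dashed lines for the median of the 495 tested miRNAs. miR-7a-5p lies below the dashed line and miR-671-5p above it under each, while miR-671-5p lies at 0.37 after quantile normalization and at −0.01 without normalization.

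The difference between miR-7a-5p and miR-671-5p was also taken within each array. A scaling factor common to an array cancels in it, so its values with and without normalization are no independent check of the scale. Their log2 signals on the same array differed by 4.20 to 4.84 in WT mice (median 4.54), and by 3.41 to 4.25 in Dgcr8+/- mice (median 3.99). In all, 7 of 8 Dgcr8+/- arrays lay below every WT array, and the share of other pairs that separate as far was not computed here either. The mean difference fell from 4.56 ± 0.20 to 3.88 ± 0.31, a change of −0.67 (SE 0.13, two-sided exact permutation test, p = 0.000311, adjusted p = 0.000311 over 2 pairs). It was −0.79 without normalization (exact p = 0.000311), −1.05 within slide 1, −0.59 within slide 2 and −0.61 without Dgcr8+/- replicate 2. With normexp background correction and its offset of 50 units, which shrinks log ratios most at low signal, it was −0.41 (exact permutation adjusted p = 0.00124).

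Among all tested miRNAs the members lay at neither end. Ranked from the lowest log2 fold change, miR-7a-5p was at percentile 23, miR-7b-5p at percentile 39.4 and miR-671-5p at percentile 86.9. The quartiles of all log2 fold changes were −0.27 and 0.27.

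**Figure D4:**
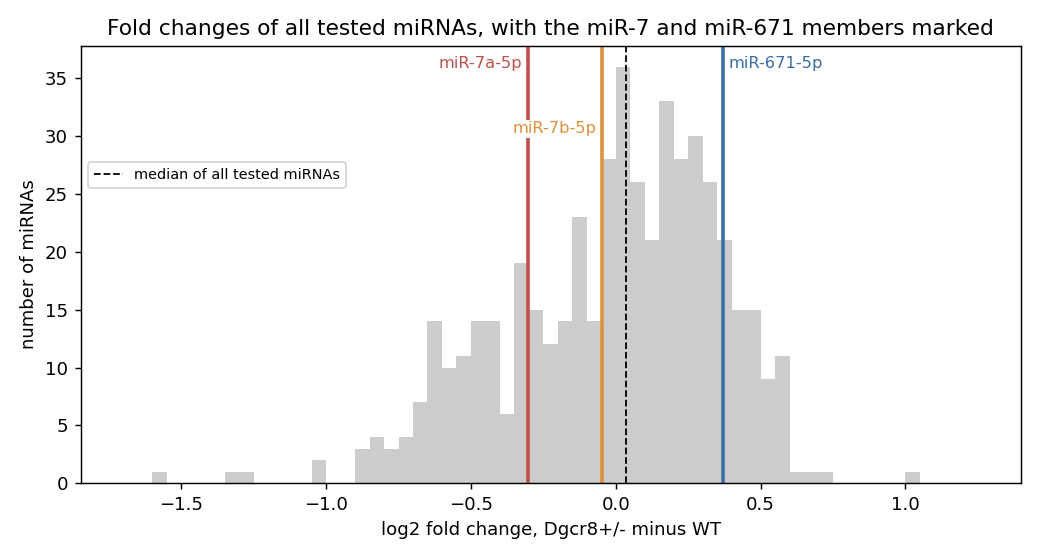
Number of miRNAs (y axis) by log2 fold change, Dgcr8+/- minus WT, after quantile normalization (x axis) for the 495 tested miRNAs, with miR-7a-5p at −0.30, miR-7b-5p at −0.05 and miR-671-5p at 0.37 as coloured lines and the median of 0.04 as a dashed line. Many miRNAs lie farther out on each side than the members.

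Neurons are the cells best known for miR-7, and other neuron-enriched miRNAs were set beside it. All 12 were tested, of which 3 were called lower and 1 higher after quantile normalization, with a median log2 fold change of −0.01. Over all 495 tested miRNAs 27.9% were called lower and 28.3% higher. Of the 12, those lower were miR-153-3p at −0.34, miR-218-5p at −0.15 and miR-128-3p at −0.11, and miR-138-5p was higher at 0.21 after quantile normalization and lower at −0.32 without normalization. miR-128-3p lost its call under 16 of the 31 alternatives with a test (limma adjusted p up to 0.386), and miR-218-5p lost it under 3 (up to 0.18). Without normalization 11 of the 12 were called lower and none higher, beside 59.2% and 0% of all tested miRNAs. The median of the 12 was then −0.50, beside −0.39 over all tested miRNAs. The summed normalized signal of 5 neuronal markers (miR-124-3p, miR-128-3p, miR-137-3p, miR-138-5p and miR-129-5p) was 31290 to 34400 in WT mice and 32120 to 35500 in Dgcr8+/- mice. The brightest, miR-124-3p (mean log2 signal 14.1 in WT mice), weighed most in this sum. Without normalization all 5 were called lower, beside 59.2% of all tested miRNAs. miR-375-3p, a miRNA of neuroendocrine cells, was detected on 4 WT and 2 Dgcr8+/- arrays and was not tested. Of 5 markers of multiciliated cells, the ependymal cells of this tissue, 4 were tested with 0 called by limma, at log2 fold changes of 0.15 to 0.35. Without normalization they stood at −0.21 (miR-34b-5p), −0.19 (miR-34c-5p), −0.083 (miR-34b-3p) and −0.21 (miR-449a-5p), with none called. The summed normalized signal was 530 to 1257 in WT and 849 to 1530 in Dgcr8+/- mice, and miR-449c-5p was detected on no array. Among markers of other cell types, 1 of 3 for oligodendrocytes (miR-219a-2-3p, 0.29) and 2 of 4 for vessels (miR-126a-5p, 0.16, and miR-143-3p, 0.22) were called higher after quantile normalization, while without it these 3 stood at −0.26, −0.35 and −0.25. Called lower were 1 of the 2 tested for choroid plexus (miR-204-5p, −0.29) and 1 of the 4 tested for microglia and immune cells (miR-142a-5p, −0.23). None of the 2 tested for red blood cells was called after quantile normalization. Without it, all tested markers of choroid plexus (2), microglia and immune cells (4) and red blood cells (2) were called lower, beside 59.2% of all tested miRNAs. The part of these cell types in the values of miR-7 and miR-671 was not tested.

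The tested members were also compared with every other tested miRNA by how they varied among mice of the same genotype. Likeness was Pearson's r of the deviations from the genotype means over the 16 arrays, given as a description, since all points share arrays and their normalization. For miR-7a-5p the nearest were miR-335-5p (r = 0.875), miR-335-3p (r = 0.863) and miR-382-5p (r = 0.858). For miR-7b-5p they were miR-582-5p (r = 0.834), miR-874-3p (r = 0.789) and miR-335-5p (r = 0.787). These 5 miRNAs had log2 fold changes of −0.43 for miR-335-5p, −0.58 for miR-335-3p, −0.55 for miR-382-5p, −0.61 for miR-582-5p and −0.56 for miR-874-3p. All were called lower by limma, beside 27.9% of all tested miRNAs. For miR-671-5p the nearest were miR-5622-3p (r = 0.900), miR-7002-5p (r = 0.888) and miR-494-3p (r = 0.798), with log2 fold changes of 0.52, 0.61 and 0.42. All of these were called higher after quantile normalization, beside 28.3% of all tested miRNAs, and none of them without normalization. miR-7a-5p and miR-7b-5p varied together (r = 0.738, or 0.956 without Dgcr8+/- replicate 2), and the WT arrays low in miR-7a-5p, replicates 1 and 3, were also the lowest in miR-7b-5p. miR-7a-5p and miR-671-5p did not vary together in this sense (r = −0.07).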

How the data were processed

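Total RNA of the LV wall was hybridised to 1-colour Agilent arrays, with 1 mouse per array and 8 per genotype. The authors deposited scanner output, with spot intensity values that Feature Extraction had background-corrected (version 10.5.1.1 in the submitters' processing notes, 10.7.3.1 in the file headers) and without normalization between arrays. A second deposited table holds an intensity per miRNA, the same number as the scanner output's total gene signal. Here, spots with outlier marks (2.25% to 3.29% per array) were left out, the rest were averaged per probe (7 to 30), the 4415 probes were quantile-normalized as the methods describe, each miRNA's probes were averaged before logs, values under 1 were set to 1 and log2 was taken. Genotypes were compared with limma 3.58.1 in R 4.3.3, with Benjamini-Hochberg adjustment over 495 miRNAs and a threshold of 0.05. Differences between members used exact permutation tests. The study's methods name Student's test, run here as an alternative. The code was tested on simulated data. The number of arrays limits the precision. Sequences and gene positions are from RefSeq tables (GRCm38.p6), and members were matched by name. The members, the other arms, the 12 neuron-enriched miRNAs, the markers and the 3 nearest miRNAs per member are named by fixed lists and rules, and members and lists were chosen with earlier results of these data known. Alternatives changed the normalization, background correction, spot filter, probe summary, detection filter, floor, blocks, array weights and test, and left out each array in turn.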

Additional observations from a re-analysis of the deposited data

Results flagged for a closer look

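The Dgcr8+/- array of replicate 2 lay far from the other 7 of its genotype in 3 measures. miR-7a-1-3p was at 6.41 there against 6.80 to 6.96 on the others, miR-7a-2-3p at 4.24 against 4.88 to 5.46, and the difference of miR-7a-5p minus miR-7b-5p at 0.79 against 1.20 to 1.32 (log2 scale). Chance gives such a gap in about 1 of 20 groups, and 3 of the 16 groups examined had one. The groups share arrays and all 3 gaps came from the same array, so they are not independent cases. The array of replicate 2 also had the lowest hybridisation spike-in signal, and the part of that signal in these values was not tested. Without it the difference of miR-7a-5p minus miR-7b-5p was −0.20 (exact permutation adjusted p = 0.000311).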

How the results depend on the processing

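miR-7a-5p was lower under all 33 alternatives (−0.80 to −0.24) and called under the 31 with a test (highest limma adjusted p = 0.0322). Leaving out each array in turn gave −0.35 to −0.26 for it, −0.09 to −0.01 for miR-7b-5p, 0.32 to 0.41 for miR-671-5p, 133 to 151 miRNAs lower, 126 to 170 higher, and pair differences of −0.27 to −0.20 (miR-7a-5p minus miR-7b-5p) and −0.72 to −0.61 (minus miR-671-5p), with every call kept. Without normalization miR-7b-5p was called at −0.60 and miR-671-5p was at −0.0054, with 293 miRNAs lower and 0 higher (limma; 0 higher also at an unadjusted p under 0.05). With labelling spike-in scaling miR-7b-5p was called at −0.59 and miR-671-5p was at 0.0097 and not called, with 261 lower and 0 higher (limma; 0 higher unadjusted). Neighbours that changed direction without normalization were miR-9-5p (−0.44), miR-124-3p (−0.29), miR-124-5p (−0.28), miR-137-3p (−0.42), miR-138-5p (−0.32) and miR-494-3p (−0.060), and with spike-in scaling the same names stood at −0.43, −0.28, −0.27, −0.40, −0.30 and −0.045. Other changes of direction were in miRNAs that were not called: miR-9-3p was at 0.032 with 75th percentile scaling, 0.040 with cyclic loess, 0.0017 with no spot left out and 0.012 with array weights, and leaving out each array gave −0.018 to 0.015. miR-7b-3p was at 0.086 with percentile scaling and 0.046 with array weights, and −0.10 to 0.044 with arrays left out. miR-129-5p was at 0.0057 with no spot left out, 0.045 in the deposited table and 0.041 with array weights, and −0.041 to 0.051 with arrays left out. miR-384-5p was at 0.033 in the deposited table and 0.015 with array weights, and −0.060 to 0.0032 with arrays left out. miR-129-2-3p was at 0.019 in the deposited table, and miR-9-5p at −0.0052 with the slide as a block. Each of these upper ends came without Dgcr8+/- replicate 2. Of the Dgcr8+/- arrays, slide 1 held only replicates 2 and 5, whose miR-671-5p signals (5.68 and 5.88) were the highest of their genotype. Within slide 1 miR-671-5p was at 0.65, and the pair differences were −0.42 and −1.05. The cause of these changes was not tested.

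The labels do not say whether replicate numbers pair the mice, and the main test did not treat them as pairs. Of the same-numbered pairs, 5 of 8 had correlated deviations above 0.1 (−0.141 to 0.496). With the replicate number as a block, 140 miRNAs were lower and 147 higher, with miR-7a-5p at −0.30 (limma adjusted p = 0.00595), miR-7b-5p at −0.05 (0.541) and miR-671-5p at 0.37 (0.00129), and 3 of 8 WT arrays correlated best with their own number. Array weights and Student's test were not run for pair differences, and miR-671-3p and its pair gave no value. Signal over background limits miR-7b-3p, whose probes were near background. miR-671-5p was at 0.14 with normexp background correction, a value that includes the shrinkage by the offset of 50 units.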
